A study of Mus musculus with 6 samples.

Results

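Nr2f2, Tcf21, Gli1, Ptch1, Pdgfra, Pdgfrb, Maf and Twist1 are regulators, receptors and hedgehog response genes of mesenchymal cells, the cells that form the stroma of an ovary. The 8 genes were taken by name, through all 24 probe sets of the array whose annotation names 1 of them and no other gene. The file as a whole holds 45101 probe sets and names 18194 genes in this way. Expression was measured in ovaries of mouse embryos at E15.5 on 3 arrays of a Dmrt1 knockout and 3 arrays of wild type. The study describes the loss of Dmrt1, which encodes a DM domain transcription factor of germ cells and testis, as conditional, and the labels call that group a knockout and the other WT. The driver of the deletion, the strain and the litters are not given in the sources used here. The sample descriptions number each group 1 to 3, and the wild-type sample titles carry other numbers. Neither has a word on separate animals. The spread behind each p-value is therefore that of these samples and may be technical.

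Hedgehog ligands bind the receptor Ptch1, which otherwise holds the membrane protein Smo inactive, and active Smo lets the Gli transcription factors switch on their targets. Gli1 and Ptch1 are themselves such targets, so their transcripts are widely read as a measure of hedgehog response. In mouse gonads the receiving cells are interstitial and stromal: Dhh from Sertoli cells acts on the interstitium of the fetal testis, and Dhh and Ihh from granulosa cells act on the stroma and theca precursors of the ovary once follicles form. Nr2f2, Tcf21, Maf and Twist1 are transcription factors of mesenchyme, and Pdgfra and Pdgfrb are the receptors through which platelet-derived growth factors reach mesenchymal cells and the pericytes of vessels.

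Values are log2 of the deposited intensities, and a probe set was tested where 3 or more of the 6 arrays reached log2 4, which is an intensity of 16. This held for 22040 probe sets, 20 of them among the 24 described here. Differences are knockout minus wild type with limma's moderated standard error, and calls are limma p-values adjusted over all tested probe sets by the Benjamini-Hochberg method at a threshold of 0.05. Knockout replicate 1 stood apart from its group: the 3 probe sets of Xist, the RNA that silences an X chromosome in female cells, averaged log2 1.81 on it and 9.75 or more on each of the other 5 arrays. The single Dmrt1 probe set was near the floor throughout (8.55, 5.97 and 7.46 intensity units in knockout, 8.47, 8.51 and 13.02 in wild type), and its position relative to the deletion is not known here, so it checks no label.

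Through the brightest probe set of each gene, 0 of the 8 genes passed the test, against 2.27% of 11897 genes that were lower and 1.28% that were higher in knockout. Among dimmer probe sets 1 of Maf and 1 of Nr2f2 fell. They are 2 of the 20 tested, or 1 without knockout replicate 1, where 5.15% of all tested probe sets were lower and 1.46% higher. The difference was negative for 17 of the 20, with a median of -0.25, and for 50.4% of all tested probe sets, whose median was -0.002. In 8 of the 20 all knockout arrays lay below all wild-type arrays and in 0 above, while 15.2% and 11.2% of all tested probe sets did so. Several of the 20 belong to 1 gene, so they are not independent. Where each probe set lies in its gene (exon, intron or UTR) was not analysed here. Of 10 fibroblast stroma markers 0 passed, with 8 negative differences and a median of -0.23. Their summed intensity was 40595 to 43920 in knockout, below 45115 to 50847 in wild type, and its part in the values of the 8 genes was not tested. Differences were also mostly negative in endothelium (5 of 7, median -0.25), macrophage (11 of 11, -0.33) and pericyte and smooth muscle markers (7 of 10, -0.07). They were mostly positive in germ cell (5 of 7, median 0.19) and pregranulosa markers (6 of 8, 0.24). Medians of the remaining lists follow below. The arrays read whole ovaries, so a difference in the share of a cell type and one in RNA per cell cannot be told apart.

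**Figure D1:**
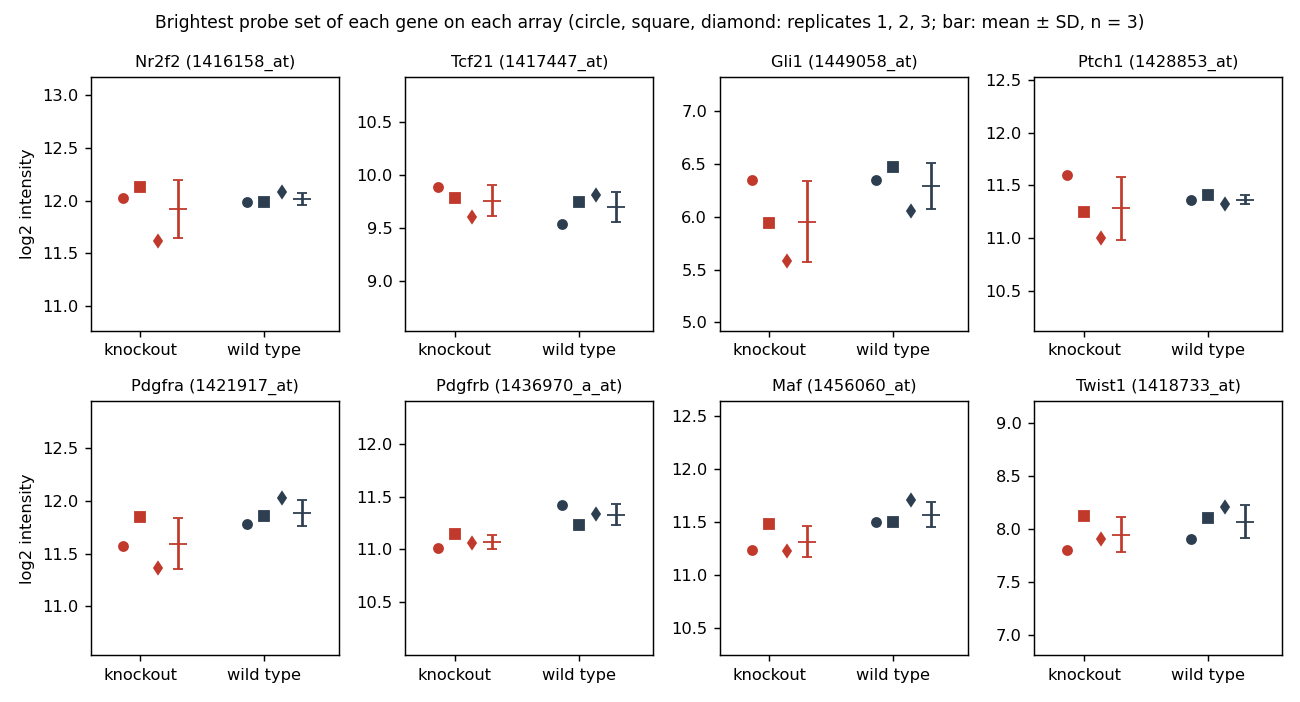
Log2 intensity (vertical axis) of the brightest probe set of each of the 8 genes, knockout left and wild type right; symbols are replicates 1 to 3 and bars the mean ± SD (n = 3). Every panel spans the same log2 range; the groups separate for Pdgfrb and Maf, and no gene passed the test.

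**Figure D2:**
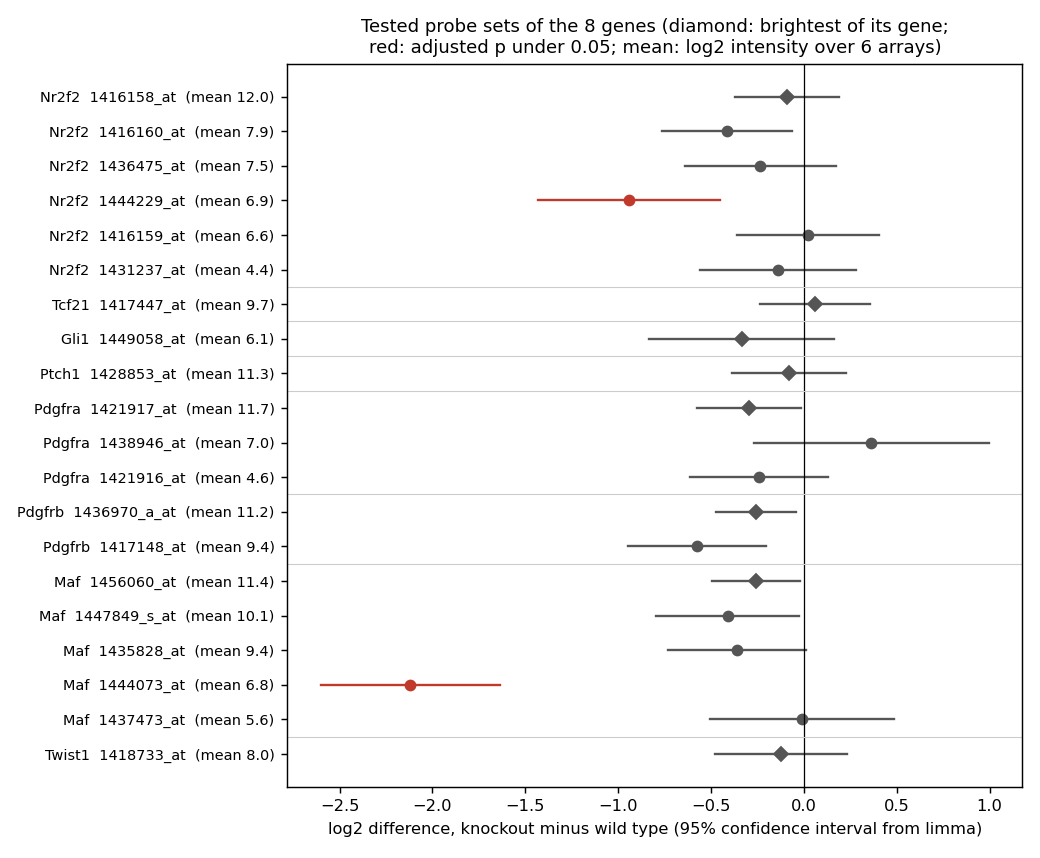
Log2 difference, knockout minus wild type (horizontal axis), of the 20 tested probe sets with limma's 95% confidence interval; diamonds are the brightest probe set of a gene and red marks an adjusted p under 0.05. Probe set 1444073_at of Maf lies at -2.12 and 1444229_at of Nr2f2 at -0.94, and the other 18 lie between -0.58 and 0.36.

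Gli1, the target gene and amplifier of the hedgehog pathway, did not pass the test. Its only probe set read log2 6.35, 5.94 and 5.58 on knockout replicates 1 to 3, against 6.35, 6.47 and 6.05 on wild-type replicates 1 to 3. The ranges overlapped, since knockout replicate 1 stood level with the wild-type arrays and the other two knockout arrays lay below them. The difference was -0.34 ± 0.22 (SE, n = 3 each, limma adjusted p = 0.444), with a 95% interval of -0.84 to 0.16. Without knockout replicate 1 it was -0.53 (limma adjusted p = 0.226).

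Ptch1, the hedgehog receptor and a target of the pathway, gave log2 11.60, 11.25 and 11.01 in knockout, against 11.36, 11.41 and 11.33 in wild type. Knockout replicate 1 was above every wild-type array and the other knockout arrays below, with an SD of 0.30 in knockout and 0.04 in wild type. The difference of -0.08 ± 0.14 (SE, n = 3 each, limma adjusted p = 0.795) had a 95% interval of -0.39 to 0.23. It was -0.24 without knockout replicate 1 (limma adjusted p = 0.308) and 0.06 without knockout replicate 3. Its remaining probe sets lay under the tested level on all arrays, 1439663_at at log2 2.13 to 2.31 in knockout, against 1.996 to 2.14 in wild type, and 1450824_at at 1.54 to 1.84 in knockout, against 1.47 to 1.58 in wild type. Within the knockout, Gli1 and Ptch1 were both highest on replicate 1 and lowest on replicate 3. Dppa3, a germ cell gene, had its knockout extremes on the same arrays, with log2 10.21, 7.62 and 6.26 in knockout and 3.61, 3.60 and 4.23 in wild type. Of the other tested germ cell markers, Ddx4, Dazl and Mael shared that knockout order, and Stra8, Sycp1 and Sycp3 did not. The part of germ cells in the hedgehog values was not tested.

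The promoter entry of Ptch1 is shown because the gene is a direct target of the Gli factors. RefSeq places it on build GRCm38.p6 at chr13:63565686-63565985 on the minus strand, 250 bases before to 50 after a transcript start. The GLI motif GACCACCCA was searched on both strands and has 0 matches in it, so no letters are in capitals; 0.253% of 32851 promoters of this length hold one.
Ptch1 promoter: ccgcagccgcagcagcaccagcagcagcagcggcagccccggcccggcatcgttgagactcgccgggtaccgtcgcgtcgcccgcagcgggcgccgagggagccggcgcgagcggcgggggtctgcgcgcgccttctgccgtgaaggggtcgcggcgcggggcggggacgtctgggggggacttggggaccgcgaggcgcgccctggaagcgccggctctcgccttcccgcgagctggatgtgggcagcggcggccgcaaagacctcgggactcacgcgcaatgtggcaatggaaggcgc

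Of the wider hedgehog pathway, 14 of 20 listed genes were tested and 0 passed in either direction. Their median difference was -0.10, with 12 negative and 2 positive and 2 at an unadjusted p under 0.05, while the median over all tested genes was 0.02. The ligand genes lay at or near the floor. Dhh, in its brighter probe set, read log2 3.75, 3.47 and 4.23 in knockout and 3.74, 3.85 and 3.89 in wild type. Ihh read 1.78 to 2.22 in knockout, against 1.80 to 1.996 in wild type, and Shh, in its brighter probe set, 1.96 to 3.17 in knockout, against 2.02 to 2.28 in wild type. These 3 lie outside the rule for named genes and were chosen after their values were seen. The tested level was not reached either by Hhip, a decoy receptor, or by Foxf1, a hedgehog target of gut and lung mesenchyme.

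Among receptors and co-receptors, Boc, which presents ligand to Ptch1, had the smallest p. It read log2 11.31, 11.34 and 11.47 in knockout, against 11.55, 11.73 and 11.63 in wild type. All knockout arrays lay below the wild-type arrays, and the difference of -0.26 ± 0.09 (SE, n = 3 per group) did not pass (limma adjusted p = 0.134). Disp1, which releases ligand from the cells that make it, differed by -0.22 ± 0.15 (limma adjusted p = 0.442) through its brightest probe set. Its other tested probe set, 1435132_at, went the opposite way, with log2 7.84, 7.89 and 8.19 in knockout, above 7.46, 7.08 and 7.69 in wild type. That difference of 0.56 ± 0.19 (0.126) and the pair difference of 0.79 (limma adjusted p = 0.0606 over all same-gene pairs) did not pass. Of the Gli factors, Gli3, the main repressor form in the absence of ligand, differed by -0.26 ± 0.11 (limma adjusted p = 0.214), with log2 11.72, 11.81 and 11.47 in knockout against 11.80, 11.93 and 12.04 in wild type. Foxf1 was called when untested dim probe sets were added (difference 1.22, limma adjusted p = 0.00154), though it lay at log2 3.37, 3.01 and 3.16 in knockout and 1.69, 2.26 and 1.94 in wild type, all under the tested level.

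**Figure D3:**
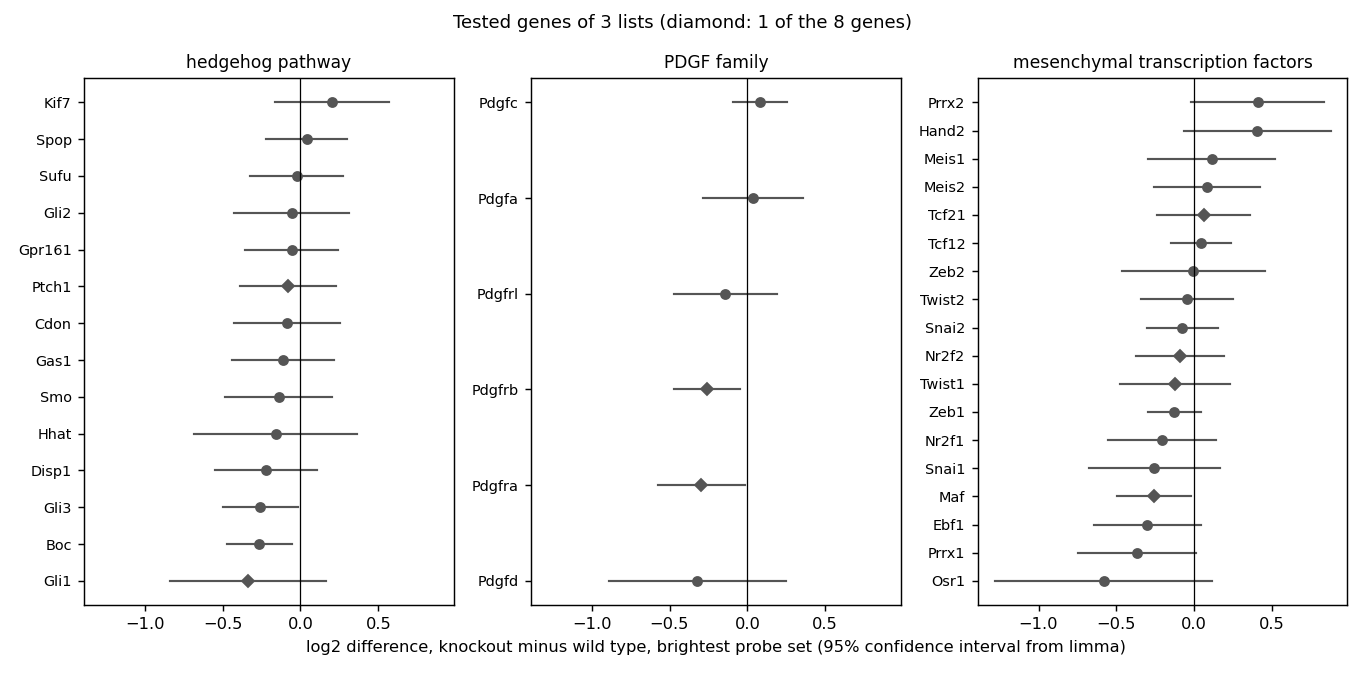
Log2 difference, knockout minus wild type (horizontal axis), through the brightest probe set of each tested gene of 3 lists, with limma's 95% confidence interval; diamonds are among the 8 genes. The 14 hedgehog genes, 6 PDGF genes and 18 transcription factors hold 0 calls.

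Pdgfrb, the platelet-derived growth factor receptor of pericytes and stroma, was lower on all knockout arrays in both of its probe sets and passed in neither. Probe set 1436970_a_at read log2 11.01, 11.15 and 11.06 in knockout, against 11.42, 11.23 and 11.34 in wild type. The gap between the groups was narrow, and the difference was -0.26 ± 0.10 (SE, n = 3 each, limma adjusted p = 0.156). Probe set 1417148_at read log2 9.08, 8.80 and 9.45 in knockout, against 9.60, 9.71 and 9.74 in wild type. It differed by -0.58 ± 0.17 (limma adjusted p = 0.074), and it passed with array weights (0.0314) and without knockout replicate 3 (0.0153). The difference between the 2 probe sets, -0.32 ± 0.21, did not pass either (limma adjusted p = 0.553 over all same-gene pairs).

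Cell type markers were counted through brightest probe sets, of which 2.27% over all genes were lower and 1.28% higher. Of 10 pericyte and smooth muscle markers, 1 fell and 0 rose: Notch3, a receptor of vessel wall cells, fell by 0.67 ± 0.13 (SE, n = 3 each, limma adjusted p = 0.0137). Together the list gave an overlapping 5777 to 6927 units in knockout, against 6205 to 7679 in wild type. In endothelium Flt1 (fell by 0.88) and Tek (fell by 0.51) were 2 of 7 tested markers that fell, with limma adjusted p = 0.0184 and 0.0452. Endothelial markers together gave 1619 to 2085 units in knockout, below the 2366 to 2747 of wild type, with Pecam1 and Cdh5 under the tested level on every array. The part of these cells in the Pdgfrb values was not tested.

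Pdgfra, the receptor of stromal and theca precursors, had 3 tested probe sets and 0 calls. Its brightest, 1421917_at, read log2 11.57, 11.84 and 11.37 in knockout, against 11.78, 11.86 and 12.02 in wild type. Knockout replicate 2 lay inside the wild-type range, and the difference was -0.30 ± 0.12 (SE, n = 3 each, limma adjusted p = 0.215). It passed without knockout replicate 2 (-0.42, limma adjusted p = 0.0416). Probe set 1421916_at read log2 4.44, 4.40 and 4.59 in knockout, just below 4.73, 4.75 and 4.67 in wild type. Probe set 1438946_at went the other way, with log2 6.73, 7.38 and 7.55 in knockout and 7.26, 6.29 and 7.02 in wild type, and its groups overlapped. Its difference of 0.36 ± 0.28 (limma adjusted p = 0.527) was not told apart from that of the brightest probe set (pair difference 0.66 ± 0.33, limma adjusted p = 0.424).

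In the PDGF family, which joins the receptors to their ligands, 6 of 7 genes were tested and 0 passed, with a median of -0.20. Pdgfc, a ligand of Pdgfra, read log2 12.57, 12.74 and 12.53 in knockout and 12.55, 12.50 and 12.55 in wild type, a difference of 0.08 ± 0.08 (SE, n = 3 each, limma adjusted p = 0.623). Pdgfd, a ligand of Pdgfrb, differed by -0.32 ± 0.26 (limma adjusted p = 0.534). Pdgfb, the ligand by which endothelium recruits pericytes, lay under the tested level.

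Maf, a basic leucine zipper factor of gonad interstitium and of macrophages, passed the test in 1 probe set and not in the others. Probe set 1444073_at read 41.2, 55.1 and 70.5 intensity units on knockout replicates 1 to 3, against 219, 271 and 221 on wild-type replicates 1 to 3. Every knockout array was far below every wild-type array. On the log2 scale the probe set fell by 2.12 ± 0.22 (SE, n = 3 each, limma adjusted p = 0.000415), which is 4.35-fold, and without knockout replicate 1 by 1.92 (0.00119).

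The other 4 tested Maf probe sets did not pass. The brightest, 1456060_at, read log2 11.23, 11.48 and 11.22 in knockout, against 11.50, 11.50 and 11.70 in wild type, a difference of -0.26 ± 0.11 (SE, n = 3 each, limma adjusted p = 0.208). Probe set 1447849_s_at read log2 9.52, 10.14 and 10.12 in knockout, against 10.45, 10.19 and 10.38 in wild type, a difference of -0.41 ± 0.17 (0.211). In both, knockout lay below wild type without overlap, by a margin far smaller than in 1444073_at. Probe set 1435828_at differed by -0.36 ± 0.17 (limma adjusted p = 0.255) and 1437473_at by -0.01 ± 0.22 (0.985), each with overlapping groups. The remaining probe set, 1447945_at, lay under the tested level, at log2 2.47 to 2.88 in knockout, against 2.40 to 2.46 in wild type.

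The disagreement within Maf was tested as the within-array gap between each probe set and the brightest one. The gap of 1444073_at to 1456060_at was -5.87, -5.70 and -5.08 log2 units in knockout, against -3.73, -3.42 and -3.91 in wild type. It differed between the groups by -1.86 ± 0.25 (SE, n = 3 each, limma adjusted p = 0.0121 over 7644 same-gene pairs), and without wild-type replicate 2 it did not pass (0.0745). The gaps of the other 3 Maf probe sets differed by -0.15 to 0.24 and did not pass. Maf is also made by macrophages, whose 11 markers held 2 that fell (2.27% of all genes did), Ptprc (by 1.06 ± 0.25, limma adjusted p = 0.0357) and Mrc1 (by 0.72 ± 0.17, 0.0358), and 0 that rose. Ptprc was dim, at log2 3.78, 4.48 and 4.72 in knockout, with 1 array under the tested level, against 5.64, 5.19 and 5.32 in wild type. The macrophage markers together gave an overlapping 5769 to 9043 units in knockout, against 7996 to 9958 in wild type. Their mean log2 did not overlap, at 6.82 to 7.52 in knockout, against 7.54 to 7.90 in wild type. The part of macrophages in the Maf values was not tested.

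**Figure D4:**
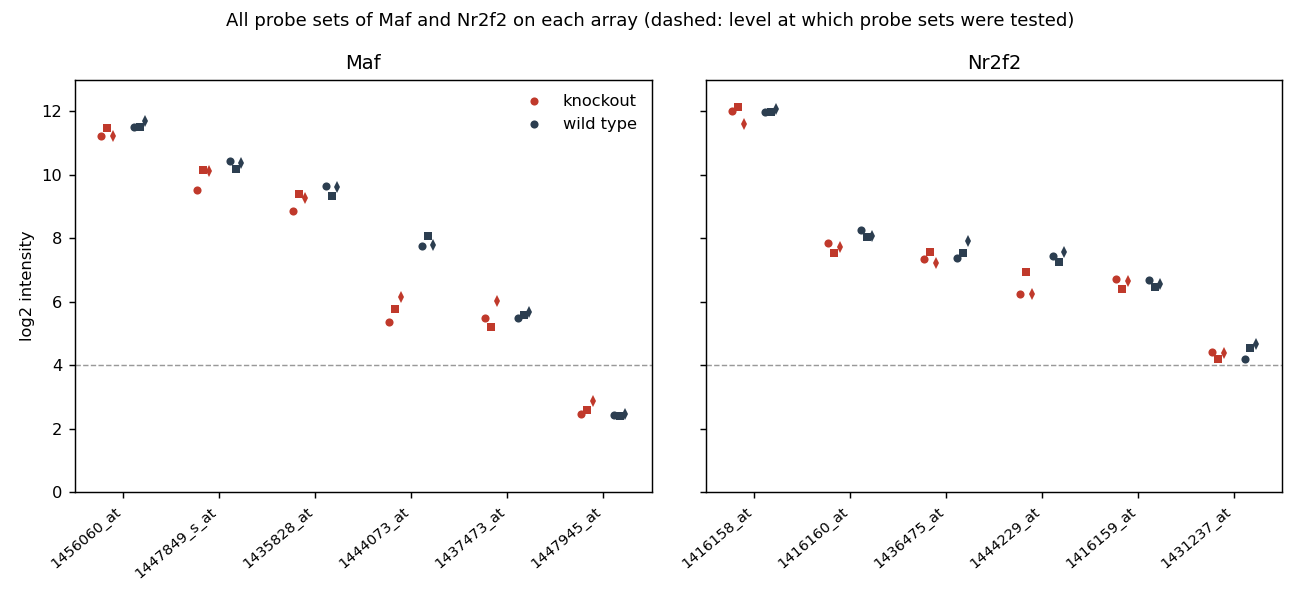
Log2 intensity (vertical axis) of all 6 probe sets of Maf and all 6 of Nr2f2 on each array, knockout left of wild type within each probe set; circles, squares and diamonds are replicates 1, 2 and 3 and the dashed line is the tested level of log2 4. The knockout arrays drop clear of the wild-type arrays in Maf 1444073_at and Nr2f2 1444229_at, and lie close to them in the brightest probe set of each gene.

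Nr2f2, the orphan nuclear receptor COUP-TFII of mesenchymal and interstitial cells, had 6 tested probe sets, of which 1 fell. The brightest, 1416158_at, read log2 12.02, 12.13 and 11.61 in knockout, against 11.98, 11.98 and 12.08 in wild type. Its groups overlapped, and the difference was -0.09 ± 0.13 (SE, n = 3 each, limma adjusted p = 0.736), with a 95% interval of -0.37 to 0.19.

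Probe set 1444229_at read log2 6.23, 6.95 and 6.23 in knockout, against 7.44, 7.24 and 7.56 in wild type. All knockout arrays were below all wild-type arrays, and the probe set fell by 0.94 ± 0.22 (SE, n = 3 each, limma adjusted p = 0.0318), or 1.92-fold. The call ended on leaving out any 1 array other than knockout replicate 2 (0.0653 to 0.122), knockout replicate 1 included (fell by 0.82, 0.0948). The gap to the brightest probe set differed by -0.85 ± 0.21, which did not pass (limma adjusted p = 0.079 over all same-gene pairs) except with array weights (0.034).

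Of the remaining Nr2f2 probe sets, 1416160_at read log2 7.86, 7.54 and 7.72 in knockout, against 8.25, 8.05 and 8.06 in wild type, again without overlap. Its difference of -0.41 ± 0.16 (SE, n = 3 per group) did not pass (limma adjusted p = 0.162). The differences of 1436475_at, 1416159_at and 1431237_at were -0.23, 0.02 and -0.14, with limma adjusted p of 0.526, 0.967 and 0.738 and overlapping groups.

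The promoter entry of Nr2f2 is shown because this is the called gene with an entry in the RefSeq table used here. It lies on build GRCm38.p6 at chr7:70366697-70366996 on the minus strand, again 250 bases before to 50 after a start. Capitals mark its 2 matches to the E-box CANNTG, the letters that basic helix-loop-helix factors such as Twist1 and Tcf21 bind, which read the same way on both strands. They begin at positions -161 and -1 from the start, and 72.3% of 32851 promoters hold at least 1 such match. The GLI motif has 0 matches.
Nr2f2 promoter: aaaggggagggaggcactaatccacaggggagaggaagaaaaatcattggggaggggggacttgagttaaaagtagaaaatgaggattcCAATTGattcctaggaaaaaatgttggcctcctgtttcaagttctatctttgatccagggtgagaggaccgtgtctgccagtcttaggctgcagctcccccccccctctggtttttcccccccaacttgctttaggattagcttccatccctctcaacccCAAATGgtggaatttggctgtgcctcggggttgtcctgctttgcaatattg

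Tcf21, a basic helix-loop-helix factor of gonadal mesenchyme that represses the steroidogenic regulator Nr5a1 in mice, did not pass. Its tested probe set read log2 9.89, 9.78 and 9.60 in knockout, against 9.54, 9.75 and 9.81 in wild type. The ranges crossed, with a difference of 0.06 ± 0.13 (SE, n = 3 each, limma adjusted p = 0.848) and a 95% interval of -0.24 to 0.36. Its other probe set, 1458887_at, lay under the tested level, at log2 1.40 to 1.93 in knockout, against 1.78 to 2.06 in wild type.

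Twist1, a basic helix-loop-helix factor that keeps cells mesenchymal, was read by 1 probe set. It gave log2 7.80, 8.12 and 7.91 in knockout, against 7.90, 8.10 and 8.21 in wild type. The arrays of the groups interleaved, and the difference was -0.12 ± 0.16 (SE, n = 3 each, limma adjusted p = 0.717), with a 95% interval of -0.48 to 0.23.

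Of 24 listed mesenchymal transcription factors, 18 were tested and 0 passed through the brightest probe set, with 12 negative differences, 6 positive ones and a median of -0.08. Next to Maf, the smallest p belonged to Prrx1 (-0.37 ± 0.17, SE, n = 3 each, limma adjusted p = 0.257), a homeobox factor of limb and other mesenchyme, to its relative Prrx2 (0.41 ± 0.19, 0.266) and to Ebf1 (-0.30 ± 0.15, 0.307). Counted over every probe set, 8 of 46 tested were lower and 0 higher, where 5.15% of all tested probe sets were lower and 1.46% higher. Without 1 probe set of Zeb2 that was tested only through the wild-type arrays, it was 7 of 45. The array-wide shares keep all probe sets of that kind. This list was chosen with earlier results of these data known, so its count is not a fair draw from the array. The lower probe sets belonged to 7 genes, Maf, Nr2f2, Meis1, Meis2, Tcf12, Zeb1 and Zeb2. The last 5 of these lie outside the rule for named genes and were chosen after their values were seen.

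Meis1 and Meis2, homeobox cofactors of Hox proteins, each had 1 probe set that fell beside a brightest probe set that did not pass. Probe set 1443260_at of Meis1 read log2 5.83, 6.38 and 6.61 in knockout, against 7.94, 8.27 and 7.88 in wild type. It fell by 1.76 ± 0.22 (SE, n = 3 each, limma adjusted p = 0.00119), while the brightest Meis1 probe set differed by 0.11 (0.787). Probe set 1440091_at of Meis2 read log2 6.25, 7.07 and 6.91 in knockout, against 8.48, 8.65 and 8.31 in wild type. It fell by 1.74 ± 0.22 (0.00128), against a difference of 0.08 in the brightest Meis2 probe set (0.816).

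Zeb1, a zinc finger repressor of epithelial genes, gave log2 4.04, 4.14 and 4.004 in knockout, against 5.73, 6.46 and 5.70 in wild type, through 1446127_at. The knockout arrays stood at the tested level, and the probe set fell by 1.91 ± 0.23 (SE, n = 3 each, limma adjusted p = 0.000882). The brightest Zeb1 probe set differed by -0.13 (0.382). Probe set 1439209_at of Tcf12, a partner of helix-loop-helix factors, fell by 1.18 ± 0.21 (0.00676), while the brightest was higher by 0.04 and did not pass (0.822). In Zeb2, the relative of Zeb1, 1456389_at fell by 0.74 ± 0.19 (0.0464). Its probe set 1422748_at read log2 3.67, 3.69 and 3.85 in knockout, all under the tested level, against 5.07, 4.40 and 4.498 in wild type. It was tested only through the wild-type arrays, so its groups could not overlap, and its call is given no weight.

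The within-array gap to the brightest probe set differed between the groups for 5 of 28 pairs in the transcription factor list, 1 each in Maf, Meis1, Meis2, Tcf12 and Zeb1, all with the dimmer probe set lower in knockout. Over the whole array this was so for 1.91% of 7644 pairs, and 0.693% had the dimmer probe set higher. Among the 12 pairs of the 8 genes it held for 1, in Maf, and the hedgehog and PDGF lists had 0 of 9 and 0 of 5. By level, 3.22% of pairs whose dimmer probe set averaged under log2 6 and 2.13% of those at log2 6 to 8 were lower in knockout, against 0.55% at log2 8 to 10 and 0.092% at log2 10 and over. The Maf, Meis1, Meis2, Tcf12 and Zeb1 probe sets averaged log2 5.01 to 7.61 over the 6 arrays. With controls left out, the median intensity of an array was 13.15 to 13.4 in knockout, below 14.37 to 14.74 in wild type. These medians lie under the tested level. The log2 medians of the tested probe sets overlapped, at 7.87 to 7.92 in knockout, against 7.90 to 7.91 in wild type. The part of this offset in the dim probe sets was not tested. With quantile normalization of the arrays, 114 pairs had the dimmer probe set lower and 66 had it higher, against 146 and 53 without it. Of 4852 genes with 2 or more tested probe sets, 283 (5.83%) had an uncalled brightest probe set and another that fell, and so did 2 of the 4 such genes here, Maf and Nr2f2. These shares are not like for like, since a gene with more probe sets has more that can fall. The 4852 genes held 7644 pairs and the 4 genes here 12, with 5 tested probe sets for Maf and 6 for Nr2f2.

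**Figure D5:**
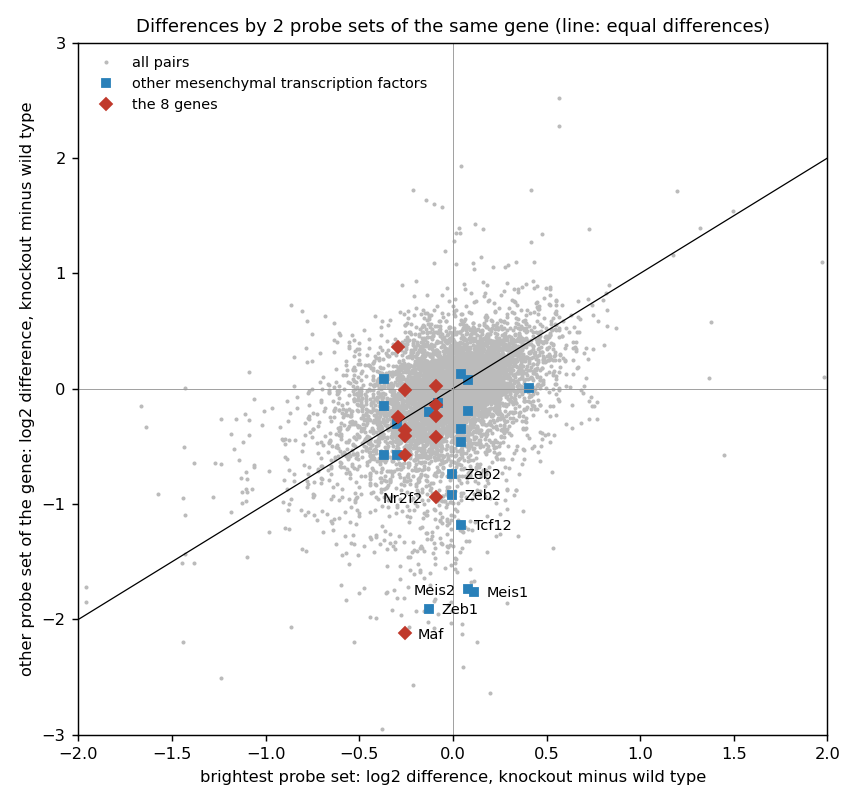
Log2 difference, knockout minus wild type, of the brightest probe set of a gene (horizontal axis) against another probe set of the same gene (vertical axis) for 7644 pairs, 7 of them outside the axes; the line marks equal differences. Red diamonds are the 12 pairs of the 8 genes and blue squares other mesenchymal transcription factors, and the named points are probe sets with an adjusted p under 0.05, which lie below the line near 0 on the horizontal axis.

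Degraded RNA lowers the signal towards the 5' end of a transcript. In the array's Gapdh controls the 3' signal exceeded the 5' signal by log2 1.13, 1.17 and 1.52 on knockout replicates 1 to 3, and wild-type replicate 1 lay inside that range with the other two below it, at 0.99 each. The actin controls overlapped as well, at 2.45 to 2.75 in knockout, against 2.28 to 2.74 in wild type, and the part of RNA integrity in the probe set differences was not tested.

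Markers of the cell types around the stroma were read on the same arrays. Germ cell markers summed to 10317 to 14866 in knockout, overlapping the 9673 to 11090 of wild type, with Dppa3 alone passing of 7 tested (higher by 4.22 ± 0.76, SE, n = 3 each, limma adjusted p = 0.00817). The mean log2 of the germ cell list did not overlap, at 9.05 to 10.04 in knockout, above 8.71 to 8.85 in wild type. That mean includes Dppa3, at log2 10.21, 7.62 and 6.26 in knockout and 3.61, 3.60 and 4.23 in wild type. It was not taken without Dppa3. Singly, 2 of the 7 tested germ cell markers separated, Dppa3 and Ddx4, both higher in knockout. Pregranulosa markers summed to 11371 to 12809 in knockout, above 10358 to 10822 in wild type, with 0 of 8 past the threshold. The mean log2 of the pregranulosa list overlapped, at 9.07 to 9.45 in knockout, against 9.03 to 9.12 in wild type. Foxl2, the marker of those ovarian cells, was present on all arrays (log2 8.23, 7.01 and 7.75 in knockout, 7.99, 7.96 and 7.83 in wild type). Of the 6 Sertoli markers, Amh, Sox8 and Dhh were not tested, Sox9 read log2 3.60 to 4.02 in knockout, against 4.11 to 4.36 in wild type, and Ptgds and Cldn11 were well above the tested level, at 9.01 to 10.21 in knockout, against 9.65 to 10.02 in wild type. The Sertoli (3 tested), steroidogenic (5), mesonephros (5) and surface epithelium (5) lists held 0 calls, with medians of -0.43, 0.37, 0.27 and 0.08. The part of these cell types in the values of the 8 genes was not tested.

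Likeness was taken as the root mean square difference, over the 6 arrays, between the profiles of brightest probe sets centred on their own means. Among 11896 other genes the closest to Gli1 were Rnf111 and Susd6, at 0.09 log2 units each, and to Ptch1 Bet1 and Sfxn1 (0.04 and 0.05). Pdgfra lay closest to Prpf39 and Hykk (0.04 each) and Pdgfrb to Camsap2 and Flrt2 (0.03 each). For the transcription factors they were Enah and Etv3 for Nr2f2 (0.02 and 0.03), Selenof and Erg28 for Tcf21 (0.02 each), Phf20l1 and Rc3h1 for Maf (0.02 and 0.03), and Itpkb and Tmem127 for Twist1 (0.03 and 0.04). The 8 genes' own profiles departed from their means by 0.12 to 0.30.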

How the data were processed

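The authors deposited 1 linear intensity for each probe set and array, computed by GCRMA per the submitters' processing notes. GCRMA subtracts background by probe base content, normalizes between arrays and summarises the probes of a set, and its version and settings are not given in the sources used here. It gathers dim probe sets at a floor, where differences carry little meaning. The precision is limited by the number of arrays.

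Values were taken to log2. Of 45101 probe sets, 64 controls were left out and 22040 reached log2 4 on at least 3 of the 6 arrays, 19541 of them naming 1 gene. Names came from the platform annotation, and all 24 probe sets of the 8 genes matched the RefSeq gene table (GRCm38.p6) by gene identifier. Of these, 20 were tested and 4 lay under the filter. Promoter sequences came from RefSeq, with entries used for 5 of the 8 genes. Gli1, Pdgfrb and Maf had none here.

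The knockout was set against wild type over all tested probe sets in limma 3.58.1 (R 4.3.3), by lmFit on genotype alone and eBayes with its trend option, with 2-sided p-values and Benjamini-Hochberg adjustment. A gene was counted once, through its brightest probe set over all 6 arrays. The same fit was run on the within-array log2 gaps of 7644 same-gene pairs, with the trend over the mean gap. A fold is a bound against log2 4 where a whole group lay under it. Fits were tested on simulated arrays. There were 0 pairs of identical arrays.

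The genes named are the 8 members, list genes past the threshold, the 4 with the smallest p in each of the hedgehog, PDGF and transcription factor lists, and markers past the threshold in the 10 lists of cell types. Outside this rule, and chosen after their values were seen, are the genes described as so chosen, list genes under the tested level (Hhip, Foxf1, Pdgfb, Pecam1, Cdh5, Amh, Sox8), Foxl2, Sox9, Ptgds, Cldn11, Osr1, Xist and Dmrt1. So are the germ cell markers Ddx4, Dazl, Mael, Stra8, Sycp1 and Sycp3. The members and lists were chosen with earlier results of these data known. Alternatives covered the filter, a floor at log2 4, the variance model, array weights, the replicate block, normalization, probe set kinds, averaged probe sets and leaving out each array.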

Additional observations from a re-analysis of the deposited data

How the results depend on the processing

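Across 17 alternatives Maf 1444073_at stayed past the threshold in each of the 16 that gave it a value (fell by 1.92 to 2.31, limma adjusted p = 0.000158 to 0.00323). Nr2f2 1444229_at passed in 10 of 16 (0.00744 to 0.122).

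Counts over all tested probe sets were 1325 higher and 1957 lower with no filter, 203 and 753 with a filter at log2 5, and 207 higher with the replicate block, against 321 and 1134. Pairs with the dimmer probe set lower numbered 349 with no filter, 88 with a filter at log2 5, 97 with a floor at log2 4 and 42 with the replicate block, against 146. Pairs with it higher numbered 223, 29, 34 and 13 in the same order, and 99 with array weights, against 53. With array weights 2 pairs of the 8 genes disagreed, against 1. Through brightest probe sets with no filter, 1 hedgehog gene and 1 transcription factor passed, Foxf1 in both lists. With averaged probe sets 3 transcription factors passed, Maf (fell by 0.63), Meis1 (0.82) and Zeb1 (0.75).

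Same-numbered arrays did not deviate together (correlations of -0.17, -0.25 and -0.17), so the numbers gave no sign of pairing the samples. Deviations were taken from each group's mean and cancel within a group, so negative correlations must be offset by positive ones. Under other matches the correlation was positive for knockout replicate 1 with wild-type replicate 2 (0.33), 2 with 3 (0.34) and 3 with 1 (0.24). The remaining matches gave -0.15 to -0.08. No label states such a match, and it was not modelled. With the replicate block 1 probe set of the 8 genes was lower, against 2, since Nr2f2 1444229_at did not pass (0.0625).

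Leaving out 1 array at a time gave 159 to 422 probe sets higher, 645 to 1119 lower, 1 to 3 of the 8 genes' probe sets lower, 19 to 112 pairs lower, 9 to 29 pairs higher, 0 to 1 pairs of the 8 genes, and 0 to 1 genes passing in the PDGF and transcription factor lists, which were Pdgfra and Prrx1 without knockout replicate 2 and Osr1 without knockout replicate 3. The lowest pair counts came without wild-type replicate 2.

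Uncalled differences near 0 changed sign: with quantile normalization Nr2f2 1431237_at (0.0020, and 0.11 against the brightest) and Maf 1437473_at (0.10). On leaving out arrays this touched Nr2f2 1416158_at (-0.20 to 0.063), 1416159_at (-0.050 to 0.12), Tcf21 1417447_at (-0.021 to 0.14), Ptch1 1428853_at (-0.24 to 0.058) and Maf 1437473_at (-0.24 to 0.17). It also touched the pair differences of Nr2f2 1416159_at (-0.070 to 0.31) and 1431237_at (-0.23 to 0.13), Pdgfra 1421916_at (-0.12 to 0.21), and Maf 1435828_at (-0.19 to 0.0080), 1437473_at (-0.026 to 0.51) and 1447849_s_at (-0.30 to 0.011). The causes were not tested.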
